A study of Caenorhabditis elegans with 8 samples.

Results

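The genes described here encode 10 subunits of eIF3, the largest of the translation initiation factors, among 8922 genes listed with RNA polymerase II calls in early Caenorhabditis elegans embryos. They are the genes of subunits A, B, C, D, E, F, G, H, I and K, found by sequence name. The group was chosen by the measured calls of eIF genes in these same embryos, so its split between the conditions is a description and was not tested. All 10 members were listed.

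eIF3 binds the small ribosomal subunit, helps to bring in the initiator tRNA carried by eIF2, and connects the ribosome to messenger RNA through the cap-binding factor eIF4F. In mammals its core is an octamer of subunits with PCI or MPN domains, folds that also build the lid of the proteasome and the COP9 signalosome. Subunits B, G and I attach to this octamer as a separate module, and subunit D sits at its edge. Budding yeast has a smaller complex with homologues of A, B, C, G and I. Embryos inherit much of their translation machinery from the mother as RNA and protein, so a gene's own transcription and the amount of its product are separate quantities.

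Chromatin bound by RNA polymerase II was immunoprecipitated through AMA-1, its largest subunit, and sequenced. The treated embryos had sig-7 RNAi, which targets a cyclophilin that holds an RNA recognition motif and is labelled as sig-7 loss. The control embryos had L4440, the empty RNAi vector. Both groups were strain KW2309, whose genotype the labels do not give, and both were mixed embryos of the 1-cell to 350-cell stage, so the calls average over cells and stages and cannot tell polymerase in a few cells from a low level in many. Each condition had 2 ChIP and 2 input libraries, and the labels do not say whether these came from separate cultures.

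The result for a gene is a call. It is 1 where a peak lay over the gene in both replicates, and 0 where at most 1 replicate had one. Every listed gene had at least 1 call of 1, and a gene not on the list is termed "not listed" and counted as called in neither condition. No value exists per library, so no error, fold change or test over samples could be given, and a change of call does not measure an amount of polymerase. The depth is unknown. As checks of the whole data set, ama-1 (F36A4.7) was called in both conditions and sig-7 (F39H2.2) in sig-7(RNAi) only, which does not report the level of its transcript. Of 15 genes picked as early embryo markers, 8 were called in sig-7(RNAi) and 5 in control, against 23.9% and 22.8% of all protein-coding genes. Some of these markers, such as pie-1, pos-1 and mex-5, are also supplied by the mother as RNA. The 7 not listed were mex-5, med-1, end-1, end-3, tbx-37, tbx-38 and pes-10. Among those called in both were nhr-2, pal-1, pie-1 and pos-1. The 3 with a call in sig-7(RNAi) alone were ceh-51, vet-6 and med-2, whose call is uncertain because med-1 is a near-identical copy. Of 15 genes that mark yolk production, sperm, adult cuticle or a neuron type, 1 was called in sig-7(RNAi) (vit-1, K09F5.2) and 0 in control. Carry-over of chromatin from the mothers was not tested, since a gene without polymerase gives no call.

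Polymerase was called at 9 of the 10 eIF3 genes in sig-7(RNAi) embryos and at 7 of the 10 in control embryos. Of all 19983 protein-coding genes of the gene table, 23.9% were called in sig-7(RNAi) and 22.8% in control. Both conditions shared 6 members, eif-3.A, B, C, F, H and I, a state found in 16.8% of all protein-coding genes. Another 3 members, eif-3.D, E and G, were called in sig-7(RNAi) only, a state found in 7.05% of protein-coding genes. A single member, eif-3.K, was called in control only, as were 6.03% of protein-coding genes. The 5973 protein-coding genes on the list divided into 56.3% shared by the conditions, 23.6% in sig-7(RNAi) only and 20.2% in control only. Of the 9 members called in sig-7(RNAi), 3 lacked a call in control, against 29.5% of protein-coding genes. Of the 7 members called in control, 1 lacked a call in sig-7(RNAi), against 26.4% of protein-coding genes. Since the calls entered the choice of the members, nothing is read from these shares.

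**Figure D1:**
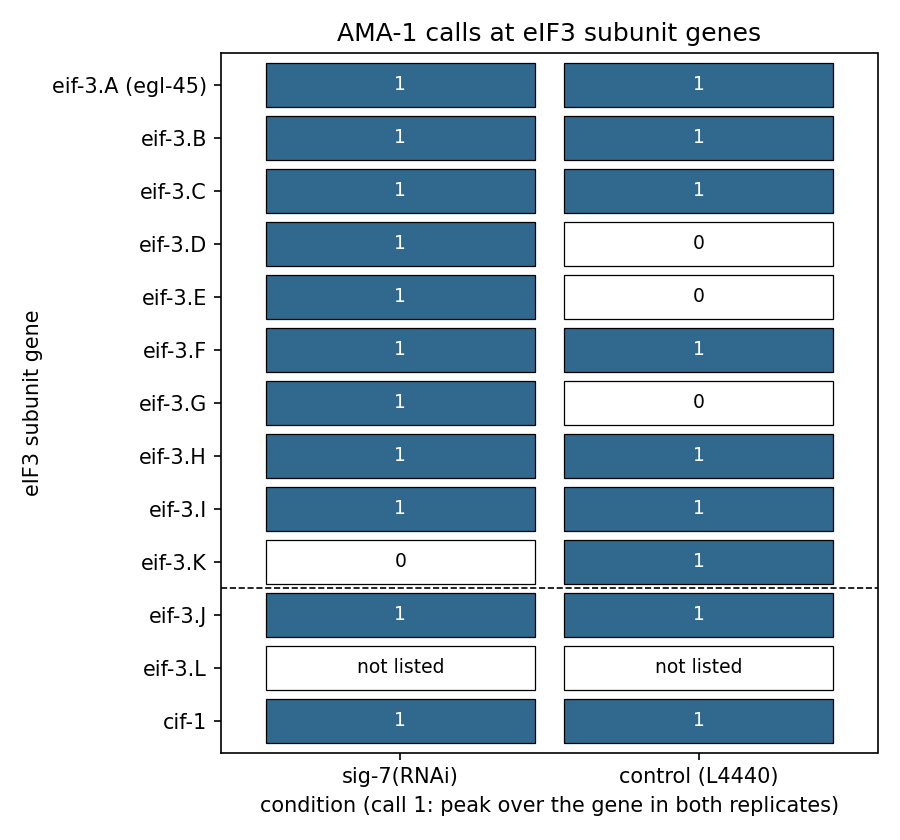
AMA-1 calls at 13 eIF3 subunit genes, 10 members above the dashed line and 3 further subunits below it. Columns are the conditions, and a filled cell marked 1 means a peak over the gene in both replicates; 9 of the 10 members are filled in sig-7(RNAi) and 7 of the 10 in control.

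The genes of subunits A, B, C and I were called with and without sig-7 RNAi. eif-3.A (C27D11.1, egl-45 in the gene table) encodes the largest subunit, a PCI protein on which much of the complex is assembled, and had a call of 1 in sig-7(RNAi) and 1 in control. Its partner in the core, the PCI subunit gene eif-3.C (T23D8.4), had 1 in sig-7(RNAi) and 1 in control. The gene of the B subunit (Y54E2A.11), which holds an RNA recognition motif and a propeller of WD40 repeats and joins the G and I subunits to A, also had 1 in sig-7(RNAi) and 1 in control. The WD40 repeat subunit gene eif-3.I (Y74C10AR.1) was likewise at 1 in sig-7(RNAi) and 1 in control. These are 4 of the 5 homologues of the yeast core. The exception was eif-3.G (F22B5.2), whose product carries an RNA recognition motif and binds the I subunit. It had 1 in sig-7(RNAi) and 0 in control.

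Both MPN subunit genes were called in each condition. eif-3.F (D2013.7) and eif-3.H (C41D11.2), whose products form a pair within the mammalian octamer, each had 1 in sig-7(RNAi) and 1 in control. The 4 PCI subunit genes among the members differed in their calls. eif-3.A and eif-3.C were called in both conditions. eif-3.E (B0511.10) encodes the homologue of mammalian INT6, named for a site where mouse mammary tumour virus inserts, and had 1 in sig-7(RNAi) and 0 in control. eif-3.K (T16G1.11), the gene of the smallest PCI subunit, had 0 in sig-7(RNAi) and 1 in control. Listed protein-coding genes divided into 56.3% called in both, 23.6% in sig-7(RNAi) only and 20.2% in control only. Nothing is read from the split of these few genes.

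The D subunit, which in human cells can bind the cap of certain messenger RNAs directly, is encoded by eif-3.D (R08D7.3). This gene had 1 in sig-7(RNAi) and 0 in control. Of the 6 members whose products belong to the octamer, 5 were called in sig-7(RNAi) and 5 in control. Of the 4 whose products lie outside it, 4 were called in sig-7(RNAi) and 2 in control. Taken by the yeast core instead, the 5 homologues had 5 calls in sig-7(RNAi) and 4 in control, and the 5 subunits that yeast lacks had 4 in sig-7(RNAi) and 3 in control. The members called in sig-7(RNAi) only therefore came from all of these groups, with 0 from the MPN pair. Of all protein-coding genes, 23.9% were called in sig-7(RNAi) and 22.8% in control. These small groups divide members that were chosen by their calls, so nothing is read from their differences.

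The worm has further eIF3 genes beyond the 10. eif-3.J (Y40B1B.5), whose product is loosely bound to the complex, was called in both conditions. So was cif-1 (K08F11.3), which encodes the M subunit, a protein shared by eIF3 and the COP9 signalosome. eif-3.L (C17G10.9), a PCI subunit gene, was not listed. In all, 11 of the 13 eIF3 genes were called in sig-7(RNAi) and 9 in control, against 23.9% and 22.8% of all protein-coding genes. The 2 eIF3 genes with no call in sig-7(RNAi) were eif-3.K, called in control only, and eif-3.L. Being not listed, as eif-3.L was, is the state of 14010 of the 19983 protein-coding genes. The products of eif-3.K and eif-3.L contact each other in the mammalian complex. In C. elegans both are known to be dispensable for viability, with mutants that are long-lived and resist stress of the endoplasmic reticulum. Any relation of these traits to the calls was not tested. In control, eif-3.L was uncalled as well, together with eif-3.D, E and G.

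A broad peak can call several adjacent genes, so the calls around each member were read along the order of protein-coding genes. Adjacent in this order means next in line and does not state a distance, an overlap or a shared operon. The 10 members lay in 10 separate stretches of equal calls, so no 2 of them shared a stretch. Of the 6 members called in both conditions, 5 had an adjacent gene with the same call, where 82.0% of all protein-coding genes called in both did. Of the 3 called in sig-7(RNAi) only, 1 had one, where 48.9% of such genes did. eif-3.K, the single member called in control only, also had one, where 53.6% of such genes did. With so few members, whether these shares differ from the background cannot be judged.

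eif-3.C sat in the longest stretch around a member, 8 genes called in both conditions. Besides eif-3.C this stretch held mom-5, a Frizzled receptor gene, tsp-7, T23D8.3, the beta-catenin gene sys-1, the histone genes his-67 and his-68, and the Argonaute gene alg-5. Copies of histone genes are near-identical, which makes the calls of his-67 and his-68 uncertain. eif-3.F lay between wbp-2 and scp-1, both called in both conditions, in a stretch of 3. eif-3.B was followed by tbc-20 and W01D2.3, eif-3.H by cps-6 and C41D11.9, and eif-3.I by the helicase gene ddx-10 and Y23H5B.5, all called in both conditions. The other side of eif-3.H was C41D11.3, called in sig-7(RNAi) only. eif-3.A had no called gene on either side. Its neighbours were the Hox gene egl-5 and kcmf-1, both not listed, with the Hox gene mab-5, called in control only, 3 places away.

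**Figure D2:**
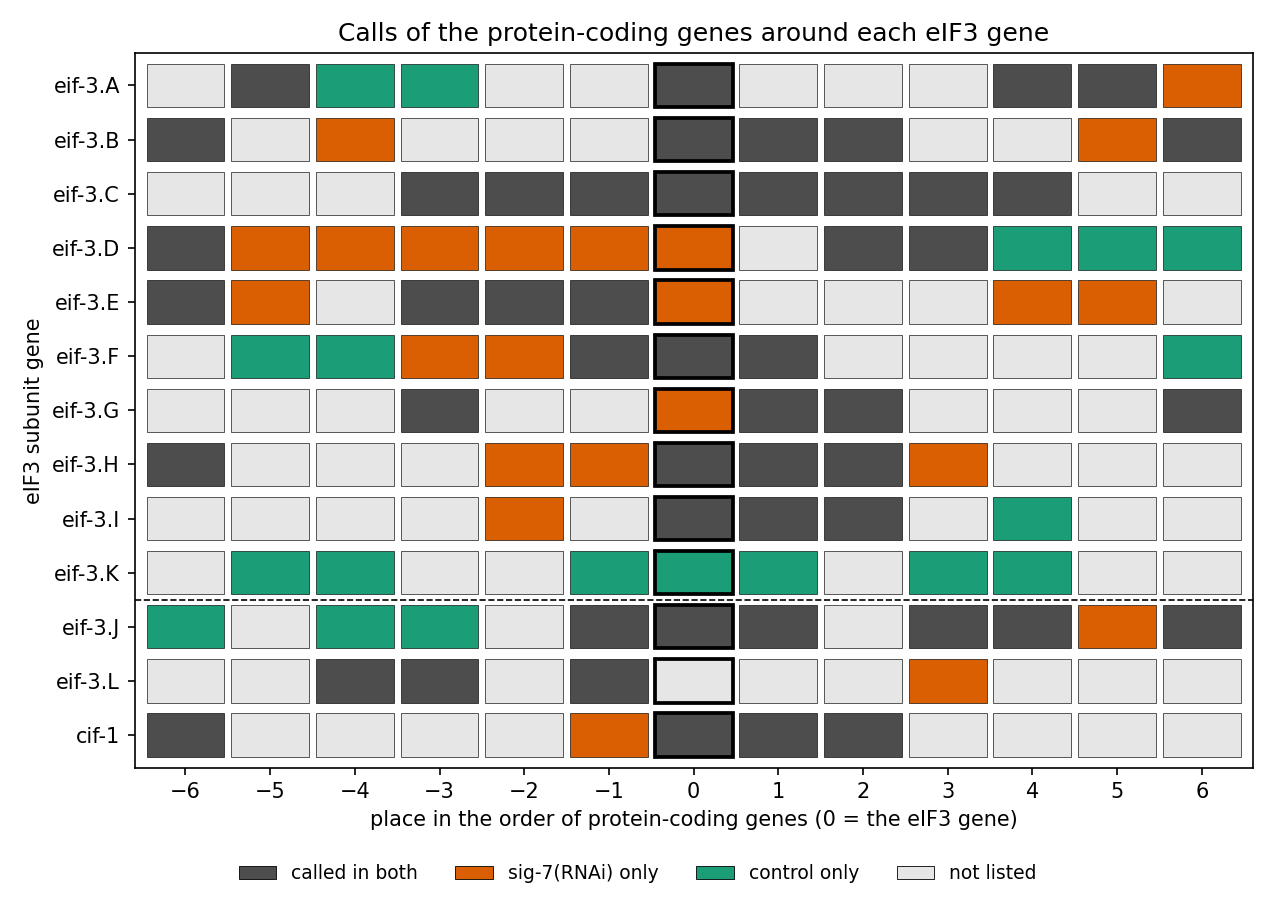
Calls of the 6 protein-coding genes on either side of each eIF3 gene, which stands at place 0 with a thick frame; rows are eIF3 genes, members above the dashed line, and colours give the call state. The row of eif-3.K holds control-only calls and genes not listed, that of eif-3.D holds a run of 6 sig-7(RNAi)-only genes ending at the member, and that of eif-3.C shows 8 genes called in both.

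The members called in a single condition differed in their surroundings. eif-3.D stood at the end of a stretch of 6 genes called in sig-7(RNAi) only. The others in it were ZK643.2, ZK643.6, grl-25, the splicing factor gene bud-13 and rpap-2, whose human homologue removes phosphate from the tail of RNA polymerase II. On its other side R08D7.4 was not listed, and R08D7.5 and pde-2 beyond it were called in both. eif-3.E and eif-3.G each had no adjacent gene in the same state. Within 5 places, eif-3.E had 3 genes called in sig-7(RNAi) only, sut-6, B0511.11 and B0511.12, and eif-3.G had 0. eif-3.E came after cdc-26, which encodes a subunit of the anaphase-promoting complex, and this gene and mrps-30 and mppe-1 before it were called in both conditions. eif-3.G came before evl-20, the gene of an ARL2-like GTPase, and cut-3, also called in both. Thus 2 of the 3 members called in sig-7(RNAi) only adjoined a gene called in both, where 43.2% of such protein-coding genes did.

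eif-3.K lay in a region of control-only calls. Its adjacent genes, pqn-68 and the sulfurtransferase gene mpst-7, were both called in control only. Of the 10 protein-coding genes within 5 places of eif-3.K, 6 were called in control only, 0 in sig-7(RNAi) only and 0 in both, and 4 were not listed. Around the 9 other members, 7 of the 90 genes within 5 places were called in control only, as were 6.03% of all protein-coding genes. Of the genes called in control only, 53.6% had an adjacent gene with the same call. Their surroundings within 5 places were not counted, so the region of eif-3.K is not called particular. Whether the call at eif-3.K came from polymerase on the gene itself or from a peak that covers its neighbours cannot be told apart with calls per gene. The same holds for eif-3.D and its run of sig-7(RNAi)-only genes.

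The other initiation factors, 24 genes, had 16 calls in sig-7(RNAi) and 8 in control, against 23.9% and 22.8% of all protein-coding genes. The list was written by hand and includes eif-6, iff-1 and iff-2, whose roles are not limited to initiation. The 24 genes divided into 8 called in both, 8 in sig-7(RNAi) only, 0 in control only and 8 not listed. Among those called in both were eif-1, which encodes a factor for start codon selection, and eif-2alpha, eif-2gamma and eif-2D. The genes called in sig-7(RNAi) only included drr-2, the gene of an eIF4H-like factor, eif-1.A, eif-2A and eif-2Bepsilon. The eIF2 complex that delivers the initiator tRNA was itself mixed: eif-2alpha and eif-2gamma were called in both conditions, and eif-2beta in sig-7(RNAi) only. Of all listed protein-coding genes, 56.3% were called in both, so nothing is read from such a mix in eIF2 or in eIF3. Most of the eIF2B complex, which recharges eIF2 with GTP, was not listed, with eif-2Bepsilon the 1 gene of 5 that was called.

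Of the complexes that share the PCI and MPN folds with eIF3, the COP9 signalosome, which trims the NEDD8 tag from cullin ubiquitin ligases, had 7 of 7 genes called in sig-7(RNAi) and 4 of 7 in control. Its genes called in both were csn-2, csn-5, csn-6 and cif-1, the last also counted among the eIF3 genes above. The genes csn-1, csn-3 and csn-4 had a call in sig-7(RNAi) alone. The lid of the proteasome had 8 of 9 genes called in sig-7(RNAi) and 6 of 9 in control. Those called in both were rpn-3, rpn-5, rpn-6.1, rpn-7, rpn-8 and rpn-11. The genes rpn-9 and rpn-12 had a call in sig-7(RNAi) alone, and rpn-6.2 was not listed. For comparison, 23.9% of all protein-coding genes were called in sig-7(RNAi), 22.8% in control and 7.05% in sig-7(RNAi) only. Differences between the conditions in these lists were not tested.

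The small ribosomal subunit is what eIF3 binds. Of its 30 genes named rps, 28 were called in sig-7(RNAi) and 30 in control. The 28, among them rps-10, rps-11, rps-12 and rps-13, were called in both. There were 0 in sig-7(RNAi) only, and rps-23 and rps-27A were the 2 in control only. Of the 10 eIF3 members, 3 were in sig-7(RNAi) only and 1 in control only. Among all listed protein-coding genes these states held 23.6% and 20.2%. The difference between these lists was not tested, since the members were chosen with their calls known.

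**Figure D3:**
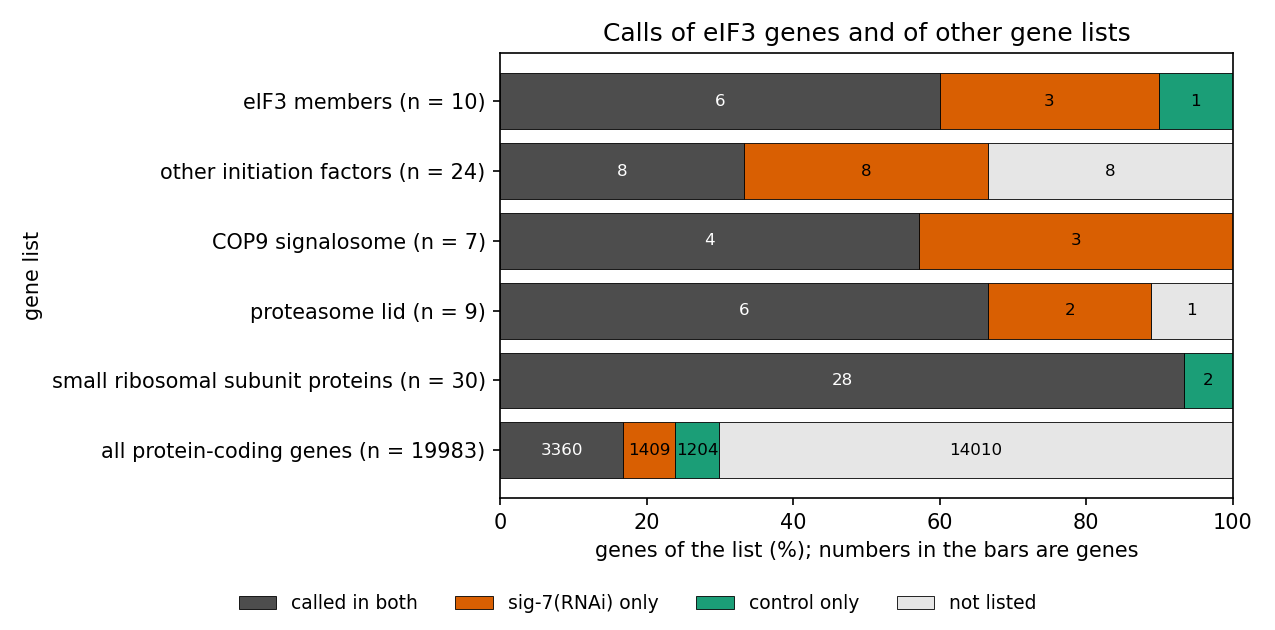
Share of genes in each call state for the 10 eIF3 members, 4 other gene lists and all protein-coding genes; the horizontal axis is the percent of the list and the numbers in the bars are genes. Each list has a larger called share than all protein-coding genes, and the eIF3 members and small ribosomal subunit genes are the lists with control-only calls (1 and 2 genes).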

How the data were processed

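AMA-1 ChIP and input libraries of embryos were collected after 72 h of growth and fixed with 2% formaldehyde for 22 min, per the labels' protocols. The deposited values are a call of 0 or 1 per gene and condition, a category and no other unit. Per the file headers, MACS2 called broad peaks at a cutoff of 0.01, and a gene was assigned a peak on an overlap of at least 250 bp or 45% of its length. The submitters' processing notes name Bowtie 1.0.1 and build ce10. How the input libraries entered, and which annotation was used, is not given in the sources used here.

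Names were looked up, ignoring case, among the locus tags of RefSeq's gene table for assembly WBcel235, which placed 8824 and left 98. That assembly is not ce10, so it served for names, kinds of gene and gene order alone. Members and lists were chosen with earlier results of these data known. The genes called outside the members were named by rule: all for lists of up to 12 genes, otherwise every control-only gene and the first 4 by symbol of those called in sig-7(RNAi) only and in both. The remaining eIF2 and eIF2B genes, eif-6, iff-1, iff-2 and the neighbours described were added after their calls were seen. The design foresaw no test. Neighbour counts were checked on made-up calls with known answers. Python 3.11.15, pandas 2.3.3 and matplotlib 3.10.9 were used. No gene or protein sequence was used.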

Additional observations from a re-analysis of the deposited data

How the results depend on the processing

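With the 3 other eIF3 genes added, 8 genes were called in both, 3 in sig-7(RNAi) only and 1 in control only. These counts, and the member counts with the case of names kept, were within 1.5 times of those given. Counting each stretch of neighbours once could not change the member counts, since no members shared a stretch. Among all listed genes in place of listed protein-coding genes, the share called in both was 50.5% and in control only 26.0%; without piRNA and ncRNA genes the 3 shares stayed inside the 95% binomial interval. Members with the same call in a neighbouring gene numbered 7 with 3 places on either side, 9 with 5 places and 7 with neighbours of any kind, against 7 in the report. No paired analysis was possible because each call already combines 2 replicates. For the same reason, leaving out replicates, another peak cutoff or overlap, normalization and filters were not run, nor was the search of promoters for motifs. A peak in 1 replicate alone also gives a call of 0, so how near a member was to the other call is unknown.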

Other observations

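Other translation genes were put into lists after their calls were seen, so the counts describe only the genes picked. Being called in both conditions was the state of 16.8% of all protein-coding genes and of 56.3% of the listed ones. Of all protein-coding genes, 23.9% were called in sig-7(RNAi) and 22.8% in control. Of 9 elongation and release factor genes, 6 were called in sig-7(RNAi) and 7 in control. The elongation factor genes eef-1A.1, eef-1A.2, eef-1B.2, eef-1G and eef-2 and the release factor gene erfa-1 were called in both. efk-1, which encodes the kinase of elongation factor 2, was called in control only, and eef-1B.1 and erfa-3 were not listed. Of 14 genes for cap and poly(A) binding, TOR signalling and other regulators of translation, 12 were called in sig-7(RNAi) and 10 in control. The eIF2 kinase gene gcn-2, gcn-1, whose product activates that kinase in yeast, and ifet-1 and larp-1 were among the 9 called in both. let-363, the TOR kinase gene, was called in sig-7(RNAi) only, and daf-15, which encodes its partner Raptor, in control only. The nuclear cap-binding gene ncbp-1 and abce-1, which encodes the ribosome recycling ATPase, had a call in sig-7(RNAi) alone.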
